A study of Mus musculus with 4 samples.

Results

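The genes described are the ADAM and ADAMTS metalloproteinases and the ADAMTS-like proteins, taken as every gene whose single annotated symbol is Adam followed by a digit or begins with Adamts. They numbered 45 of 17097 measured genes: 26 ADAM genes, 14 ADAMTS genes and 5 ADAMTS-like genes, each read from its brightest probe set. RNA came from intact inguinal mammary gland of mice at postnatal day 10. The 2 knockout arrays came from Mt2-mmp(-/-) animals, which lack the membrane-anchored matrix metalloproteinase Mt2-mmp (gene symbol Mmp15) in all tissues, and the 2 wild-type arrays from Mt2-mmp(+/+) littermates; every animal was of a congenic C57Bl/6J background. Arrays of a genotype are labelled as biological replicates, and sex, pooling of animals and the extent of the deletion are not stated. Mmp15 itself was not analysed here, which leaves the genotype of each array unchecked.

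ADAM proteins are membrane-anchored proteases that cut other membrane proteins just outside the cell and so release growth factors, receptors and adhesion molecules, a step called ectodomain shedding. In the mammary gland ADAM17 is known for releasing amphiregulin, which drives duct growth through the EGF receptor in the stroma. ADAMTS proteases are secreted and carry thrombospondin repeats that hold them in the matrix, where they cut proteoglycans such as versican, process collagens or act on microfibrils. ADAMTS-like proteins have the same repeats without the protease domain. Several ADAM genes are expressed mainly in testis and epididymis, and others encode proteins whose protease site has lost the residues needed for catalysis.

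All values are RMA log2 values, and a fold change is knockout minus wild type on that scale. A gene was called detected when its value lay above the 95th percentile of the nonspecific control probe sets on all 4 arrays, a level of 4.49 to 4.56. Values of different probe sets depend on their probes and do not rank the amounts of different transcripts. The tissue was checked on its defining markers: 12 of 14 luminal, 11 of 11 basal, 9 of 9 adipocyte and 12 of 12 fibroblast genes were detected. Knockout 1 and wild type 2 stood apart from the other arrays in hair follicle markers, in a list that also held epidermal genes. The 17 measured genes of this list had a summed linear level of 6050 and 5220 on these arrays. Knockout 2 had 584 and wild type 1 had 568. Tchh, the hair sheath protein trichohyalin, followed the same split with log2 values of 10.74 and 10.37 against 3.49 and 4.03. The epidermal keratin Krt10 did not, with 7.16 and 7.17 against 7.22 and 7.20, and Krt1 and Lor were not detected. Each genotype holds 1 array of each kind, so differences are also given within the pair with hair follicle transcripts (knockout 1 minus wild type 2) and within the pair without (knockout 2 minus wild type 1).

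The gland expressed most of the somatic ADAM genes and most ADAMTS and ADAMTS-like genes, and few of the reproductive ones. In all 29 of 45 genes were detected, beside 12010 of 17097 measured genes, so these genes were not detected more often than genes at large. The detected genes included 8 of 9 shedding ADAM genes, all 3 neural ADAM genes, 6 of 7 proteoglycan-cleaving ADAMTS genes and all 5 ADAMTS-like genes. Of the 14 reproductive ADAM genes 2 were detected, Adam1a and Adam4. Adam28, a lymphocyte ADAM, was the shedding gene that was not detected, with values of 4.14 to 4.44.

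**Figure D1:**
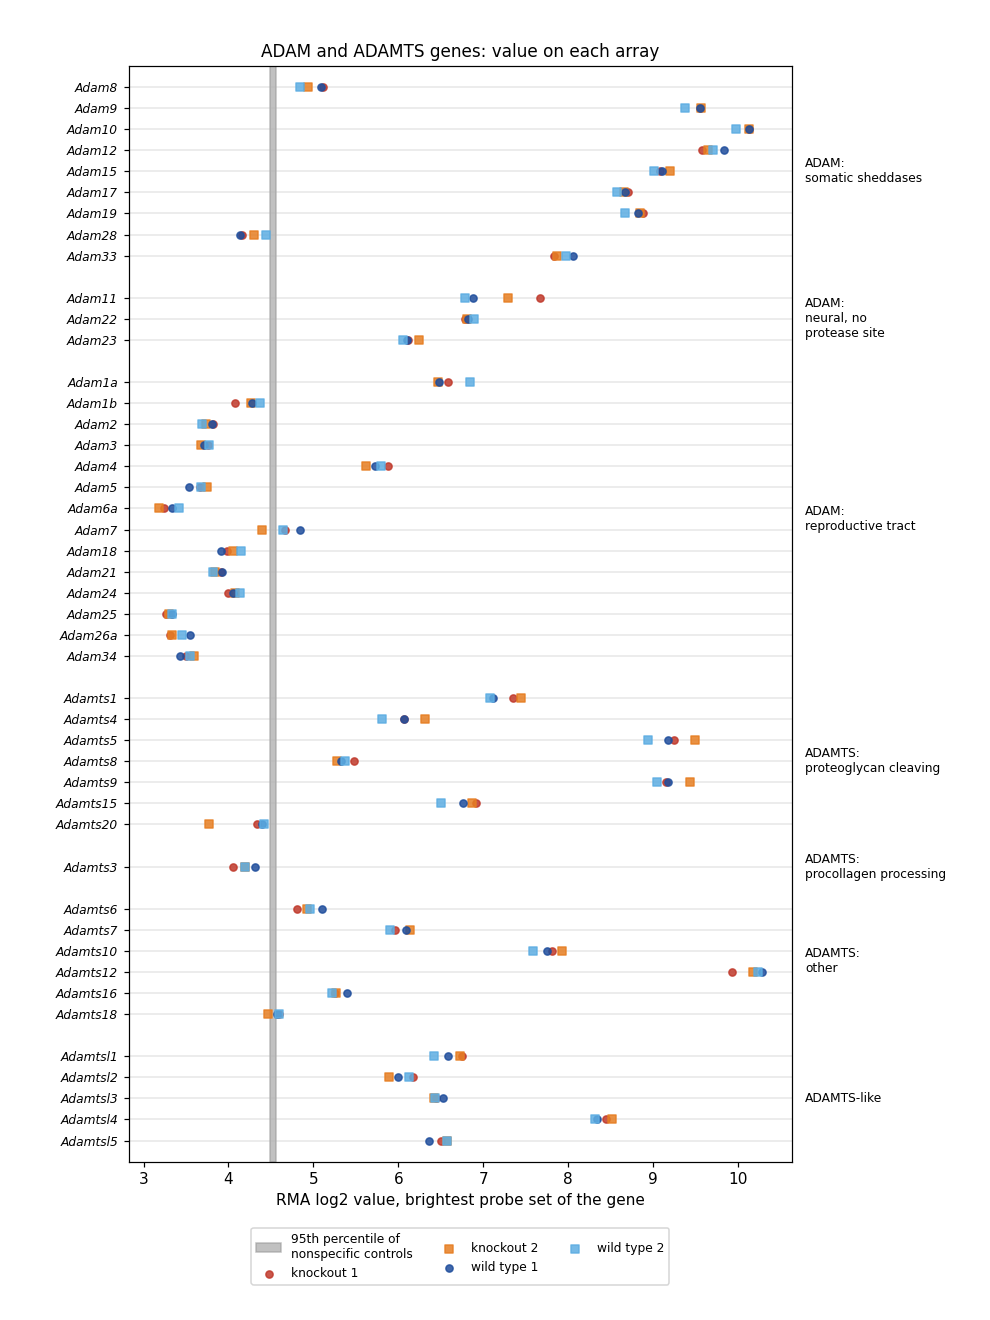
Each row is a gene, grouped by role, and each point its RMA log2 value on 1 array (horizontal axis); the grey band is the 95th percentile of the nonspecific controls. The arrays of both genotypes lie close together for most genes, and 12 of 14 reproductive ADAM genes lie at or left of the band on at least 1 array.

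The sequence upstream of the start site was compared between detected and undetected genes, as a description. RefSeq promoter entries (GRCm38.p6) existed for 23 of the 45 genes, and the 250 bases before the annotated start were read in the direction of the gene. The 15 detected genes had a median of 17 CG dinucleotides there, with a range of 4 to 39, and the 8 genes not detected had a median of 1 with a range of 0 to 35. The median over 27025 promoters of the same length was 6. The groups overlapped: Adamts3, Adamts20 and Adamts18 were not detected although their windows held 35, 32 and 15 CG, and Adam1a was detected with 4. The following 4 windows, with each CG in capitals, include none of these exceptions. They come from a ubiquitous sheddase, the ADAMTS gene with the smallest p and 2 testis ADAM genes. They were chosen after their counts were seen, and a CG count describes the letters without saying whether they were methylated in these tissues. They lie at chr9:70678732-70678981 on the plus strand with 29 CG (Adam10), chr16:85803114-85803363 on the minus strand with 15 (Adamts1), chr8:40751958-40752207 on the plus strand with 1 (Adam25) and chr8:43665561-43665810 on the minus strand with 0 (Adam34).
Adam10: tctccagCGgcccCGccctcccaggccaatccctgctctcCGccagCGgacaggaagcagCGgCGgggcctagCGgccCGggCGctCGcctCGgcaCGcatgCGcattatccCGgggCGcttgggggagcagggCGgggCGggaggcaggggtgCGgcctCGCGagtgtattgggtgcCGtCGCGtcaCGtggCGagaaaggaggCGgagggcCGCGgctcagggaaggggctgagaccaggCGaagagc
Adamts1: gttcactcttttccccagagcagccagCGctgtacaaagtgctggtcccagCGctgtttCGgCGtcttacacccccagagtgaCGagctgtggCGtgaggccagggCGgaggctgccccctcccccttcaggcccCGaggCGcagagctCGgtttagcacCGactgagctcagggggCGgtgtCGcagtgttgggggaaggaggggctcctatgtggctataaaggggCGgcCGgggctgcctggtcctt
Adam25: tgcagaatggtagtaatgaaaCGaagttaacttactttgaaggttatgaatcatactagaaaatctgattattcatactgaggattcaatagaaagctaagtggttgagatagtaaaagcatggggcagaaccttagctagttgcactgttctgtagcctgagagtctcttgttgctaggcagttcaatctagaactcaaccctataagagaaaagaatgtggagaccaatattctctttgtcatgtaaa
Adam34: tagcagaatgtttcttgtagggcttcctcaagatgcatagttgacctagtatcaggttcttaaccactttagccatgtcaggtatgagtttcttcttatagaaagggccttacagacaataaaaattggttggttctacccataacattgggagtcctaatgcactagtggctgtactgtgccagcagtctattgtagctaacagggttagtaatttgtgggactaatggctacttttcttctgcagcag

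**Figure D2:**
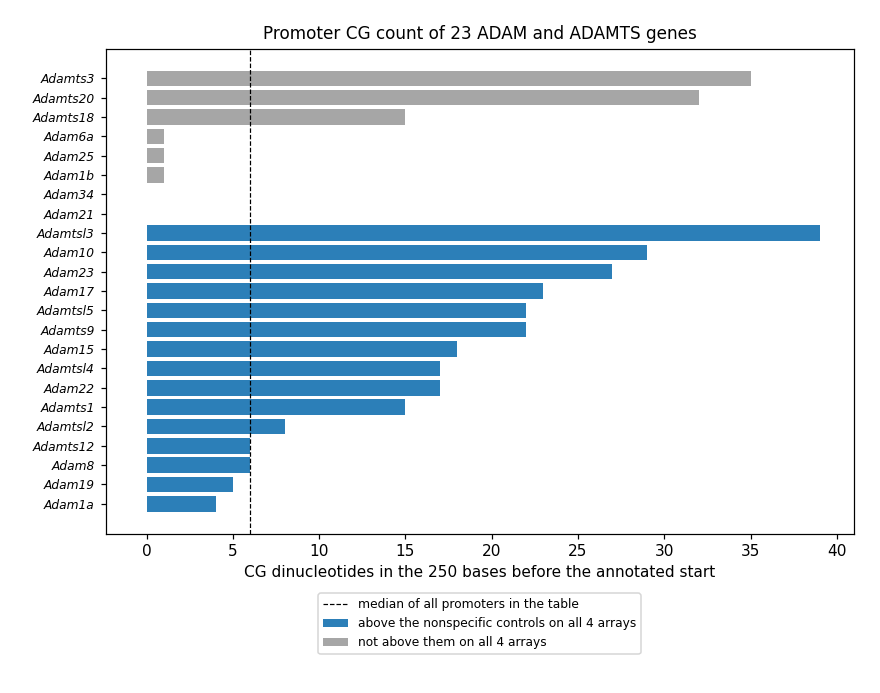
Bars give the number of CG dinucleotides in the 250 bases before the annotated start of 23 genes, blue for detected genes and grey for the others; the dashed line is the median of all promoters, 6. Among the undetected genes 5 reproductive ADAM genes have 0 or 1, while Adamts18, Adamts20 and Adamts3 have 15 to 35.

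The comparison of knockout with wild type asks whether loss of a membrane-anchored metalloproteinase goes along with other levels of its relatives. No ADAM, ADAMTS or ADAMTS-like gene passed the threshold (adjusted p under 0.05 by limma over all genes), where 0.00585% of all genes did. The smallest adjusted p among the 45 was 0.693. Of the 45 genes 23 lay above 0 and 22 below (51.1% above, against 48.9% of all genes), with a median log2 fold change of 0.0057 against -0.0022 for all genes. The median size of the difference, disregarding its sign, was 0.0966 against 0.0696, and Adam11 was the 1 gene past 0.5. The median 95% interval reached 0.213 on either side of the fold change. Without adjustment 4 genes had a limma p under 0.05, namely Adam11, Adamts1, Adamts15 and Adamtsl1. All 4 were higher in knockouts and 0 lower, against a background of 7.01% of all genes in either direction, 3.63% higher and 3.38% lower. With an intensity trend in limma the count was 2 higher (Adam11 and Adamts1) and 2 lower (Adam26a and Adam6a, both undetected). In that setting 6.76% of all genes reached an unadjusted p under 0.05. With each array centred on its median Adamts15 did not reach it, which left 3 genes, beside 6.99% of all genes. Values of the genotypes did not overlap for 22 of the 45 genes, 11 higher and 11 lower, where 37.6% of all genes did not overlap, 18.2% higher and 19.4% lower. Near-ties entered that count: with median centring 18 genes (40.0%) did not overlap, against 37.8% of all genes. The 16 undetected genes included 6 of those 11 lower ones.

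**Figure D3:**
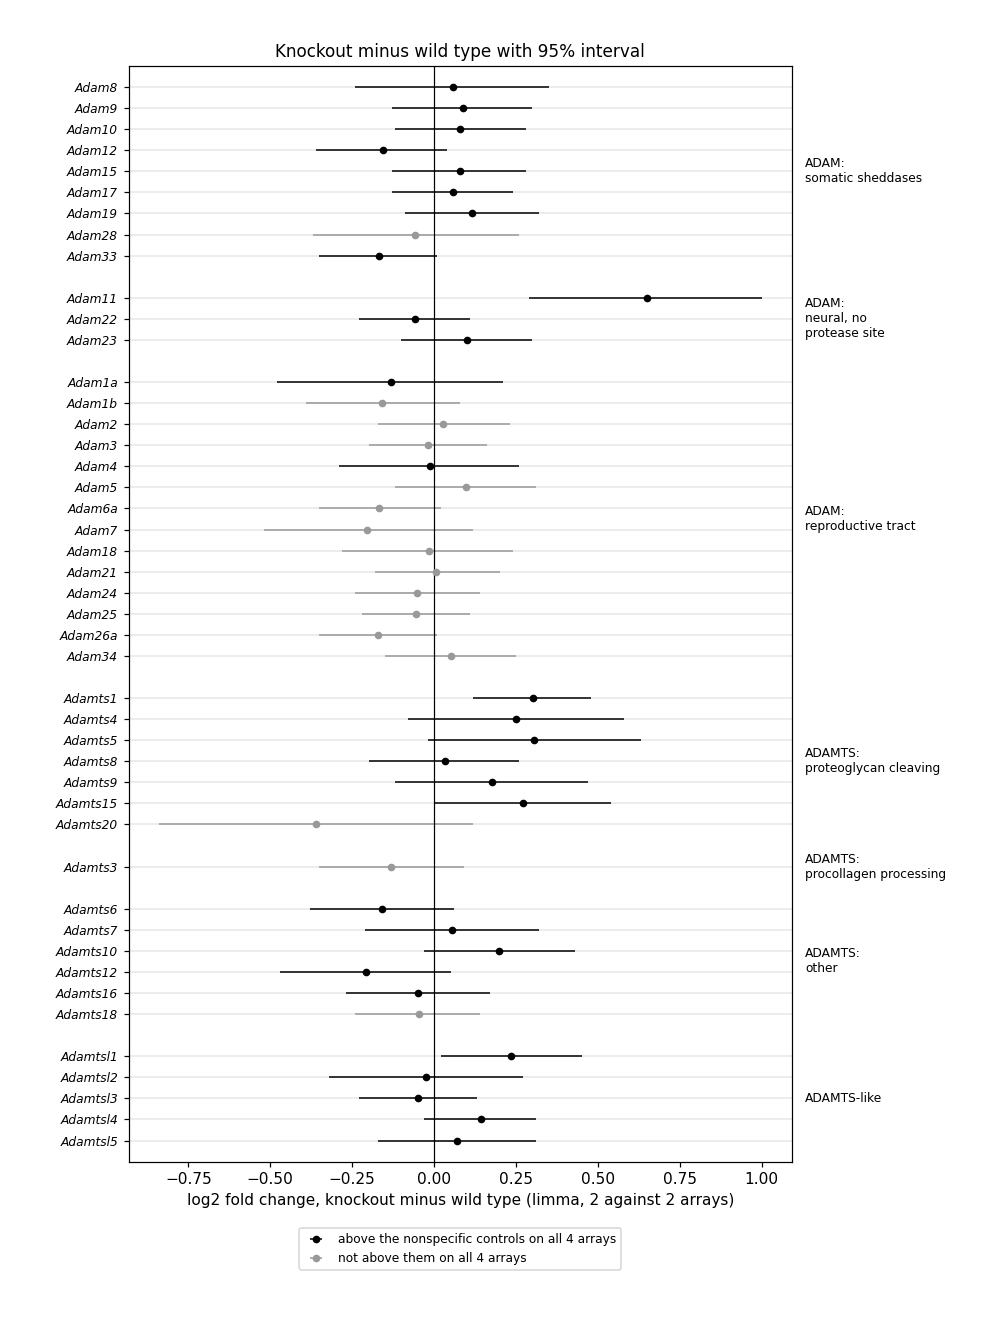
Points are log2 fold changes (knockout minus wild type) and lines their 95% intervals from limma with 2 arrays per genotype; grey genes were not above the nonspecific controls on all 4 arrays. Most intervals cross 0, and Adam11 at 0.65, Adamts1 at 0.30 and 6 of 7 proteoglycan-cleaving genes lie to the right of 0.

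Among the shedding ADAM genes differences were small in both directions. Adam10, which cuts Notch receptors and cadherins, had log2 values of 10.13 and 10.13 in knockouts 1 and 2 and 10.13 and 9.98 in wild types 1 and 2. The fold change was 0.08 (SE 0.079, 95% interval -0.12 to 0.28), with 3 arrays level and wild type 2 lower; without wild type 2 it was 0.0029. Adam17, the main sheddase of amphiregulin and tumour necrosis factor, had 8.70 and 8.66 in knockouts against 8.67 and 8.57 in wild types. Its fold change was 0.06 (SE 0.072, 95% interval -0.13 to 0.24), the genotypes overlapped, and its other probe sets gave 0.03 and -0.04. Adam9, a widely expressed sheddase, had 9.55 and 9.56 against 9.55 and 9.38, a fold change of 0.09 (SE 0.082). The value of Adam9 came from wild type 2 alone being lower, and without that array it was 0.0028.

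Adam15, an ADAM of endothelial and epithelial cells that binds integrins, had 9.08 and 9.20 in knockouts and 9.11 and 9.01 in wild types (0.08, SE 0.080). Its 4 probe sets disagreed, from -0.08 to 0.23. Adam19, an ADAM that cuts neuregulin, had 8.88 and 8.84 against 8.82 and 8.67 (0.12, SE 0.079), and both knockout arrays lay above both wild-type arrays. Its value was 0.04 without wild type 2, and 0.21 and 0.02 within the pairs with and without hair follicle transcripts. Adam8, an ADAM of myeloid cells, was near the detection level with 5.11 and 4.94 against 5.09 and 4.84 (0.06, SE 0.115), and its genotypes overlapped. The sign of Adam8 turned without knockout 1 (-0.03) or wild type 2 (-0.07).

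Of the 8 detected shedding ADAM genes 2 lay below 0, Adam12 and Adam33. Adam12, an ADAM of mesenchymal cells that cuts insulin-like growth factor binding proteins, had 9.57 and 9.65 in knockouts and 9.83 and 9.70 in wild types. Its fold change was -0.16 (SE 0.078, adjusted p = 0.747 by limma over all genes), with no overlap, and its second probe set gave -0.15. Adam33, known from smooth muscle and fibroblasts, had 7.83 and 7.87 against 8.06 and 7.97 (-0.17, SE 0.071, limma adjusted p = 0.729). Both knockout arrays of Adam33 lay below both wild-type arrays, and its second probe set gave -0.14. The within-pair differences were -0.13 and -0.18 for Adam12 and -0.14 and -0.20 for Adam33, in the pair with and the pair without hair follicle transcripts. Of 12 fibroblast markers 10 lay above 0, with a median of 0.10, where 48.9% of all genes lay above 0. Pdgfra (-0.18) and Col1a2 (-0.08) lay below. The part of stromal cells in the values of Adam12 and Adam33 was not tested.

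Adam11, an ADAM without a working protease site that is best known from neurons, differed more than any other of the 45 genes. Its log2 values were 7.67 and 7.29 in knockouts 1 and 2 and 6.88 and 6.79 in wild types 1 and 2. Both knockout arrays lay above both wild-type arrays, knockout 1 by the most. The fold change was 0.65, or 1.57-fold (SE 0.137, 95% interval 0.29 to 1.00; unadjusted p = 0.00537 and adjusted p = 0.693 by limma over all genes). The dimmer probe set of Adam11 had 6.06 and 5.71 against 5.47 and 5.74, a difference of 0.28 (SE 0.151) with overlapping genotypes. The difference was 0.46 without knockout 1 and 0.84 without knockout 2, and 0.88 within the pair with hair follicle transcripts against 0.42 within the pair without.

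Brown adipocyte markers, the genes of heat-producing fat, were also higher in knockouts, though 3 of 10 (Cox7a1, Dio2 and Ucp1) had the same order of all 4 arrays as Adam11. Knockout 1 was the highest array for 9 of the 10, and both knockout arrays lay above both wild-type arrays for 8. All 10 measured markers lay above 0, 9 were detected, and their summed linear level was 11900 to 15900 in knockouts and 8190 to 8450 in wild types. The part of this cell type in the Adam11 difference was not tested. In whole tissue more cells of a type and more RNA per cell cannot be told apart. The other neural members had smaller differences. Adam22 had 6.79 and 6.81 against 6.82 and 6.89 (-0.06, SE 0.067) and Adam23 had 6.11 and 6.24 against 6.10 and 6.05 (0.10, SE 0.078). Adam22 and Adam23, receptors for the secreted neuronal protein LGI1, also lack a working protease site.

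The proteoglycan-cleaving ADAMTS genes lay above 0 with 1 exception. Of the 7 measured genes 6 were above 0 and 1 below, with a median of 0.25, and 0 passed over all genes. The genotypes did not overlap for 4 genes on the higher side, Adamts1, Adamts4, Adamts5 and Adamts15, where 18.2% of all genes did so. Adamts1, which cuts versican and is induced by hormones in ovary, had log2 values of 7.35 and 7.44 in knockouts and 7.11 and 7.08 in wild types. The arrays of a genotype lay close together (SD 0.0646 in knockouts and 0.0169 in wild types, n = 2 each), and the fold change was 0.30, or 1.23-fold (SE 0.069, 95% interval 0.12 to 0.48; unadjusted p = 0.00754 and adjusted p = 0.693 by limma over all genes). It ran from 0.26 to 0.35 with 1 array left out and was 0.27 and 0.33 within the pairs with and without hair follicle transcripts. Adamts1 was measured by 1 probe set.

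Adamts5, the main aggrecan-cleaving enzyme of cartilage and a versican protease of connective tissue, lies next to Adamts1 on chromosome 16 with no measured gene between them. Its log2 values were 9.24 and 9.49 in knockouts and 9.18 and 8.94 in wild types, with wild type 1 just below knockout 1. The fold change was 0.30 (SE 0.127, limma adjusted p = 0.729), and its 4 probe sets ran from 0.01, for a set not above the controls, to 0.30. Adamts5 differed by 0.18 when knockout 2 or wild type 2 was left out. Adamts15, another versican protease, had 6.92 and 6.87 against 6.76 and 6.50 (0.27, SE 0.104; unadjusted p = 0.0494 and adjusted p = 0.712 by limma). Its value was 0.14 without wild type 2 and 0.40 without wild type 1. Adamts8, its neighbour on chromosome 9, had 5.48 and 5.28 against 5.33 and 5.37 (0.03, SE 0.090), with overlapping genotypes.

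Adamts4, an aggrecanase induced in inflamed tissue, had 6.07 and 6.31 in knockouts against 6.07 and 5.81 in wild types (0.25, SE 0.127), with knockout 1 and wild type 1 level. The difference of Adamts4 was 0.13 without knockout 2 and 0.12 without wild type 2. Its second probe set had 5.58 and 5.85 against 5.33 and 5.38, a difference of 0.36 (SE 0.107; unadjusted p = 0.0183 and adjusted p = 0.706 by limma over all probe sets). Adamts9, a versican protease of vessels and developing stroma, had 9.15 and 9.43 against 9.18 and 9.05 (0.18, SE 0.116), with overlapping genotypes and probe sets from -0.02 to 0.30. It was 0.04 without knockout 2 and 0.32 without knockout 1. The exception was Adamts20, a versican protease of embryonic skin, which was not detected. Its log2 values were 4.33 and 3.77 in knockouts and 4.40 and 4.42 in wild types (-0.36, SE 0.188), so that the low value rests on knockout 2, and within the pairs it was -0.09 with and -0.63 without hair follicle transcripts.

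**Figure D4:**
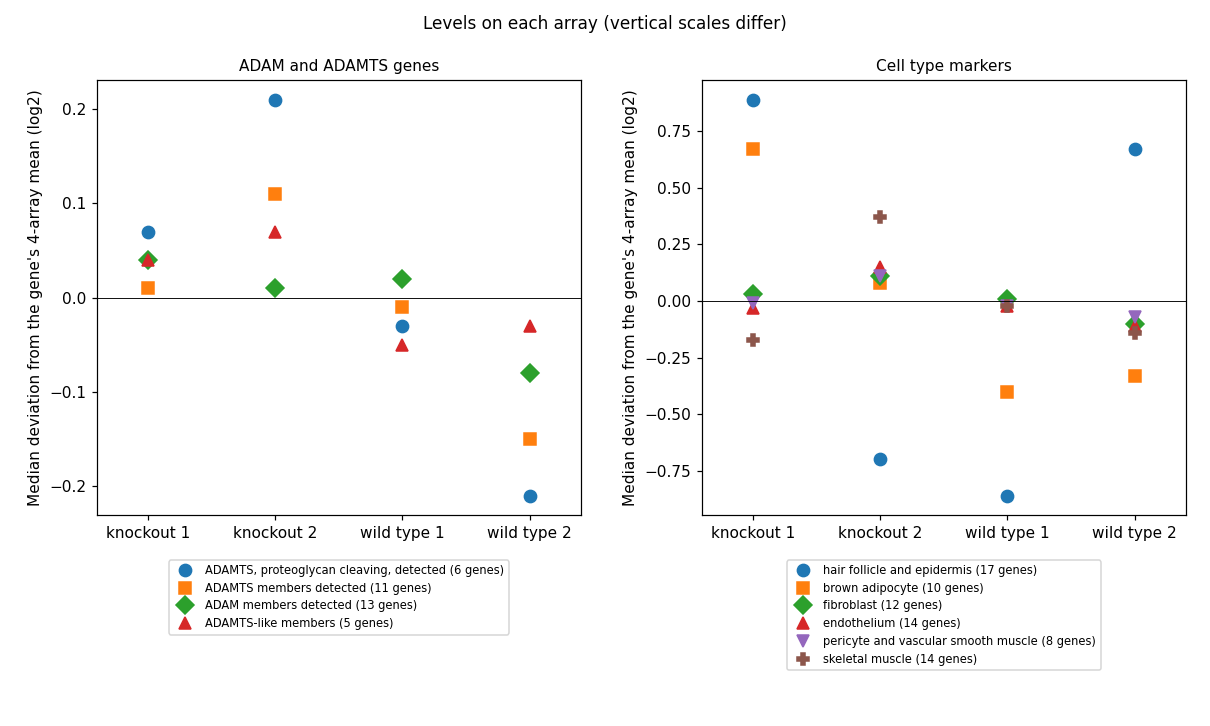
Symbols give, on each array (horizontal axis), the median over a group of genes of the deviation from each gene's mean over the 4 arrays, in log2 units; the left panel holds the ADAM and ADAMTS groups and the right panel cell type markers, on a wider scale. The proteoglycan-cleaving genes run from 0.21 in knockout 2 to -0.21 in wild type 2, while the hair follicle markers are high in knockout 1 and wild type 2.

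Several secreted proteases had the same extreme arrays. Detection on all 4 arrays leaves out Adamts20, which was lowest in knockout 2. Of 11 detected ADAMTS genes 6 (Adamts1, Adamts4, Adamts5, Adamts7, Adamts9 and Adamts10) were highest in knockout 2 and lowest in wild type 2, or 54.5%, while 11.5% of all detected genes had these extremes. Of the 13 detected ADAM genes 3 did so. Several marker lists had the same extremes in their median deviation. It was 0.11 in knockout 2 and -0.10 in wild type 2 for fibroblast markers, and 0.15 and -0.11 for endothelial markers. The adipocyte (0.18 and -0.05), pericyte and vascular smooth muscle (0.11 and -0.07) and lymphocyte lists (0.06 and -0.02) also had them. The luminal, basal, hair follicle, brown adipocyte, macrophage, skeletal muscle and mast cell lists did not, and the nerve list had a tie for its highest array. Summed linear levels were 35100 to 36100 in knockouts and 32100 to 34500 in wild types for the 12 fibroblast genes, and 9510 to 11300 against 9110 to 9400 for the 14 endothelial genes, of which 13 lay above 0. The part of these cell types in the ADAMTS differences was not tested. The order of the arrays was noticed in these data and is given as a description.

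The remaining ADAMTS genes went both ways. Adamts10, which acts on fibrillin microfibrils, had 7.81 and 7.93 in knockouts against 7.75 and 7.59 in wild types. Its fold change was 0.20 (SE 0.089, limma adjusted p = 0.735), its second probe set gave 0.23, and the genotypes did not overlap. Adamts6, the closest relative of Adamts10, was near the detection level with 4.81 and 4.93 against 5.10 and 4.96 (-0.16, SE 0.086). Its second probe set, not above the controls, gave 0.04. Adamts12, which cuts cartilage oligomeric matrix protein and is made by mesenchymal cells, had 9.93 and 10.17 against 10.28 and 10.23 (-0.21, SE 0.101, limma adjusted p = 0.745), and knockout 1 was the lowest array. Without knockout 1 the difference of Adamts12 was -0.09. Adamts7 (0.05) and Adamts16 (-0.05) overlapped between genotypes, and a second probe set of Adamts16 gave 0.15. Adamts3, a procollagen N-propeptidase that also activates the lymphatic growth factor VEGF-C, was not detected, with 4.05 and 4.19 against 4.31 and 4.20 (-0.13, SE 0.086).

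Among the 5 ADAMTS-like genes 3 were higher than 0 and 2 lower, none passing the threshold, and their median was 0.07. Adamtsl1, or punctin, a matrix protein of unknown action, had log2 values of 6.75 and 6.73 in knockouts and 6.59 and 6.42 in wild types. The genotypes did not overlap, and the fold change was 0.23 (SE 0.083; unadjusted p = 0.0374 and adjusted p = 0.712 by limma over all genes), with 3 probe sets from 0.15 to 0.28. It was 0.15 without wild type 2. Adamtsl4, which binds fibrillin and anchors the eye lens, had 8.44 and 8.51 against 8.34 and 8.32 (0.14, SE 0.066), also without overlap. Adamtsl2, which binds the TGF-beta-storing protein LTBP1, had 6.17 and 5.89 against 5.99 and 6.12 (-0.03, SE 0.116), and its sign turned without knockout 2 (0.11) or wild type 2 (0.04). Adamtsl3 and Adamtsl5 had -0.05 and 0.07.

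The reproductive ADAM genes were mostly undetected. Of 14 genes 4 lay above 0 and 10 below, from -0.20 to 0.10, and 0 passed. Adam1a, a subunit of the sperm fertilin complex that is also transcribed elsewhere, had 6.58 and 6.47 in knockouts against 6.48 and 6.84 in wild types (-0.13, SE 0.134), with wild type 2 alone high. Without wild type 2 the sign turned (0.05). Of the 45 genes 9 lie on chromosome 8, which carries Mmp15, and their fold changes ran from -0.17 to 0.10. The nearest, Adamts18, was 153 measured genes away. Its brightest probe set had 4.60 and 4.47 against 4.57 and 4.59 (-0.05, SE 0.074), and without knockout 2 its sign turned (0.02). A dimmer set of Adamts18 had 4.23 and 4.10 against 4.39 and 4.58 (-0.32, SE 0.095; unadjusted p = 0.0196 and adjusted p = 0.706 by limma over all probe sets). All 3 sets lay at or under the level of the nonspecific controls on at least 1 array.

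**Figure D5:**
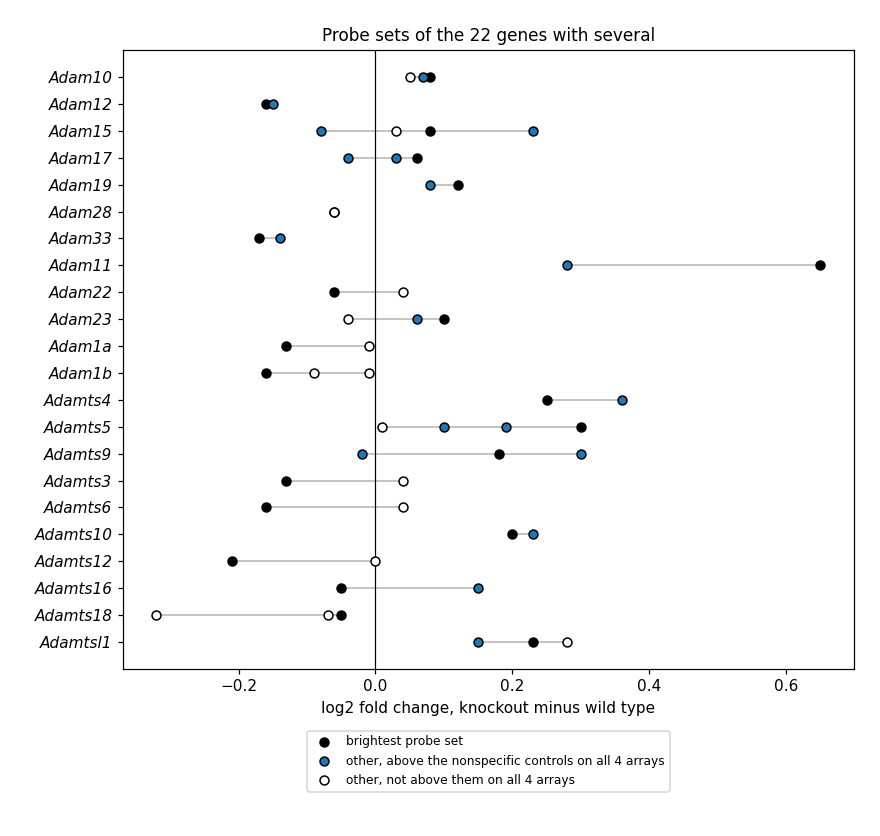
Points are the log2 fold changes of every probe set of the 22 genes with several, black for the brightest, blue for others above the nonspecific controls on all 4 arrays and white for others that are not. Probe sets share a sign in 14 genes, among them Adam11, Adam12, Adam33, Adamts4 and Adamts5, and differ in sign in 8, among them Adam15, Adam17 and Adamts9.

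The 45 genes were read by 78 probe sets, and 22 genes had several. All probe sets of a gene shared a sign in 14 genes and differed in 8. Dimmer sets gave differences of smaller size in most of the 22 genes. Among them were Adam11 (0.28 against 0.65), Adamts5, Adamts12 (-0.0045 against -0.21) and Adamts6 (0.04 against -0.16). In a smaller number of genes a dimmer set gave a larger one. Among these were Adamts4 (0.36 against 0.25), Adam15 (0.23 against 0.08), Adamts9 (0.30 against 0.18), Adamts10, Adamtsl1 and Adamts18.

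The partners of these proteases were examined in lists taken from their known roles, and 0 genes of any list passed over all genes. The share of genes with an unadjusted p under 0.05 was in each list below the 7.01% of all genes (1 of 22, 3 of 47 and 2 of 36), so the genes named from them are a description. Of 22 measured inhibitors and maturation factors 17 lay above 0 (77.3%, against 48.9% of all genes), with a median of 0.04, and limma gave an unadjusted p under 0.05 for 1. That gene was Pcsk6, a proprotein convertase of the furin family, with 8.50 and 8.57 in knockouts against 8.37 and 8.14 in wild types (0.28, SE 0.099). Tspan17, a tetraspanin that accompanies Adam10 to the cell surface, had 0.35 (SE 0.148). Pofut2, which adds fucose to thrombospondin repeats, had 0.15 and Timp2, a metalloproteinase inhibitor, 0.11. Timp3, the inhibitor of Adam17 and of aggrecanases, chosen after its value was seen, had 0.09 (SE 0.077). The median of this list was 0.0037 without knockout 2 and 0.1157 without knockout 1.

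Of 50 listed membrane proteins released by shedding 47 were analysed here, without Areg, the amphiregulin gene. Of these 47 genes 24 lay above 0 and 23 below, with a median of 0.0032, and limma gave 3 an unadjusted p under 0.05. Cdh2, N-cadherin, a substrate of Adam10, had 7.30 and 7.34 against 7.02 and 6.91 (0.36, SE 0.073, limma adjusted p = 0.693). Its 2 probe sets ran from 0.19 to 0.36. Csf1, the macrophage growth factor, had 0.26 (SE 0.080), with 4 probe sets from 0.10 to 0.38. Epcam, an epithelial adhesion molecule, had 9.21 and 9.21 against 9.54 and 9.50 (-0.31, SE 0.063, limma adjusted p = 0.693). The 2 probe sets of Epcam ran from -0.31 to -0.05. Egf, an EGF receptor ligand, had -0.32 (SE 0.134). The luminal marker list, which holds Epcam itself, had 2 of 14 genes above 0. Its summed linear levels, Epcam included, were 4790 to 5100 in knockouts and 5410 to 5730 in wild types. The part of luminal cells in the value of Epcam was not tested.

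Of 36 matrix substrates and cofactors of the ADAMTS enzymes 24 lay above 0, with a median of 0.05, and for 2 the unadjusted limma p was under 0.05. Ltbp4, a microfibril protein that stores TGF-beta, had 8.18 and 8.41 against 7.93 and 8.07 (0.30, SE 0.105), and the microfibril protein Mfap5 had 0.20 (SE 0.075). Lox, the collagen-crosslinking oxidase, had 0.19 and Col1a1, a type I collagen chain, 0.18. Versican (Vcan), the shared substrate of the proteoglycan-cleaving group, chosen after its value was seen, had 9.29 and 9.42 against 9.52 and 9.30 (-0.05, SE 0.101) with overlapping genotypes. The median of the matrix list was -0.0147 without knockout 2 and 0.1188 without knockout 1.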

How the data were processed

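Total RNA (200 ng per array) was hybridised to 4 Affymetrix arrays, 2 per genotype. The authors deposited log2 values per probe set; the submitters' processing notes name RMA and affy, and give no version here. RMA removes shifts shared by most genes and compresses differences of dim genes. Of 45141 probe sets 28898 had 1 gene symbol, 551 several, 15588 were not listed and 104 were controls, 23 of them nonspecific. Gene IDs matched RefSeq (GRCm38.p6) for 99.28% of the first and changed 0 symbols. The brightest probe set per gene left 17097 genes.

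Genotypes were compared by limma 3.58.1 (lmFit, eBayes; R 4.3.3), two-sided, with Benjamini-Hochberg adjustment over all genes and 2 residual and 2.96 prior degrees of freedom. P-values measure only the spread between these arrays, whose number limits the precision. For a single gene, the smallest p that exact permutation of 4 arrays allows is 0.333. The steps were tested on simulated data. Genes described singly had an unadjusted p under 0.05, were among the 6 largest differences in each direction among detected genes, or stood on a list of well-known members; Adamts2 of that list was not analysed here. Adam23, Adam28, Adamts7, Adamts8, Adamts10, Adamts16, Adamts20, Adamtsl3 and Adamtsl5 were added to complete their groups after their values were seen. In each partner list the 4 smallest p were named. The members and lists were chosen with earlier results of these data known. Alternatives covered normalization, centring, dim genes, probe sets, variance priors, replicate blocks and left-out arrays. A crossed pairing and differences within pairs of arrays were added after seeing the data.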

Additional observations from a re-analysis of the deposited data

How the results depend on the processing

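No gene of the 45 and none of the partner lists passed by limma's adjusted p under the alternatives run; for the lists, the variance priors and the crossed block were added after seeing the data. Of 92 refits of 23 described members with 1 array left out 86 kept the sign and 6 turned, and 69 refits with quantile normalization, median centring or the mean of probe sets kept it. The other settings leave a gene's fold change as it is and bear only on its p. Adam1a turned to 0.05 without wild type 2, Adam8 to -0.03 and -0.07 without knockout 1 and wild type 2, Adamts18 to 0.02 without knockout 2, and Adamtsl2 to 0.11 and 0.04 without knockout 2 and wild type 2. With 1 array left out the values ran from -0.31 to 0.05 for Adam1a, -0.07 to 0.18 for Adam8, -0.11 to 0.02 for Adamts18 and -0.16 to 0.11 for Adamtsl2. A genotype left with 1 array is assumed to vary like the other. The median over the 45 genes (0.0057) was 0.0114 with quantile normalization, -0.0001 with median centring, 0.0868 with the brighter genes only (19 members), 0.0707 with detected genes only (29 members), 0.0163 with the mean of probe sets and 0.0291 over 78 probe sets. It was 0.0370 within the pair with hair follicle transcripts and -0.0129 within the pair without, and -0.0169 to 0.0213 with 1 array left out. With the brighter genes only 14 of 19 lay above 0, and 13 did not overlap (68.4%, against 41.7% of all genes in that setting). Of the 78 probe sets 43 lay above 0. Non-overlapping genes (22) numbered 18 with median centring, 19 with quantile normalization and 19 with the mean of probe sets (40.0%, 42.2% and 42.2%). Of all genes 37.8%, 37.6% and 38.1% did not overlap in these settings. With 1 array left out 30 to 36 members did not overlap, where 65.2% to 70.9% of all genes did not. An unadjusted p under 0.05 by limma was reached by 7 genes with the mean of probe sets, by 7 probe sets and by 2 to 8 genes with 1 array left out. With the replicate block 5 genes reached that unadjusted p, beside 6.93% of all genes, and 0 passed. With the crossed replicate block, chosen after seeing the data, 4 reached it, beside 6.22% of all genes, and 0 passed. The labels do not say whether same-numbered arrays belong together. Deviations of same-numbered arrays correlated at -0.480 across genes. This value cannot settle the pairing, since knockout 1 and wild type 2 also share high hair follicle markers. The number of detected genes (29) was 38 and 31 at lower detection levels. With 2 arrays per genotype the unadjusted 95% interval of a typical member reached 0.213 on either side, and the adjusted threshold was not reached even at the 0.65 of Adam11.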
